A study of Mus musculus with 12 samples.

Results

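The inhibitory receptor genes *Pdcd1*, *Lag3*, *Tigit*, *Ctla4*, *Havcr2*, *Cd160* and *Btla* were followed across the 33 cell clusters of the series. They were taken by name as the classical checkpoint receptors of T cells, and are 7 of the 18992 genes listed. NZB/W F1 mice, the offspring of NZB and NZW parents, come down with a lupus-like kidney disease as they grow older, and their CD8+ T cells positive for PD-1 and CD44 were studied. These cells were sorted from the spleen at 12 weeks, before disease (12W spleen), and from the spleen and the kidney at 28 weeks, in advanced disease (28W spleen and 28W kidney), to ask how these cells differ by age and by organ. No animal was treated. The study describes its NZB/W F1 mice as female and does not give the number of mice behind a library. Kidneys were minced, digested with collagenase and passed over Percoll, a step not described for spleen, so organ and preparation cannot be told apart. For the 28W spleen samples the age entry gives 12 weeks while the title gives 28W, and grouping followed the title. Single-cell 5′ libraries were made, in which each captured transcript carries a unique molecular identifier (UMI). Each group has 4 labelled samples, and whether they are separate samples or sequencing lanes of 1 library is not stated. The deposited tables pool them with no map from cells to samples, so each group is 1 library. There is therefore no replicate and no test, and every interval given is a 95% interval of counting error that does not cover differences between mice or preparations. The sort itself used the PD-1 protein, so the presence of *Pdcd1* transcripts is not a result.

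Inhibitory receptors are surface proteins that damp signals from the T cell receptor and from costimulatory receptors. PD-1, the product of *Pdcd1*, binds PD-L1 and PD-L2 and recruits phosphatases. CTLA-4 competes with CD28 for CD80 and CD86, TIGIT competes with CD226 for CD155, and LAG-3 binds MHC class II. TIM-3, the product of *Havcr2*, binds galectin-9 and CEACAM1, and is also made by myeloid cells. CD160 and BTLA both bind the herpesvirus entry mediator, and BTLA is also abundant on B cells. Activated T cells make several of these receptors for a short time, whereas T cells under lasting antigen exposure keep many of them at once, a state known as exhaustion.

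The genes lie on 5 chromosomes of the GRCm38 assembly. *Pdcd1* (ENSMUSG00000026285) spans chromosome 1 from 94038305 to 94052553 on the minus strand, and *Ctla4* (ENSMUSG00000026011) spans the same chromosome from 60887000 to 60915832 on the plus strand. *Lag3* (ENSMUSG00000030124) spans chromosome 6 from 124904361 to 124911705 on the minus strand, and *Cd160* (ENSMUSG00000038304) spans chromosome 3 from 96798763 to 96829351 on the minus strand. *Tigit* (ENSMUSG00000071552) spans chromosome 16 from 43648867 to 43664146 on the minus strand, and *Btla* (ENSMUSG00000052013) spans the same chromosome from 45224315 to 45257670 on the plus strand. *Havcr2* (ENSMUSG00000020399) spans chromosome 11 from 46454935 to 46481255 on the plus strand. Values are UMIs per whole gene, without distinction of exons. The *Ctla4* span contains the pseudogene *Rpl18-ps1* on the same strand and the *Cd160* span overlaps *Pdzk1* on the other strand, so these counts could include reads of a neighbour.

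The promoters of *Pdcd1*, *Tigit* and *Cd160*, whose levels moved together over clusters, and of *Ctla4*, whose level did not move with them, are shown first. Each is the 250 bases before the annotated start in RefSeq (GRCm38.p6), written 5′ to 3′ on the strand of the gene. Capitals mark the letters of 5 of the 6 motifs searched on both strands that occur in them or in the other members' promoters: GGAAA for NFAT, TGANTCA for AP-1, TGTGGT for RUNX, AGGTGT for T-box and CTTTGA for TCF.
*Pdcd1*, chr1:94052554-94052803, minus strand: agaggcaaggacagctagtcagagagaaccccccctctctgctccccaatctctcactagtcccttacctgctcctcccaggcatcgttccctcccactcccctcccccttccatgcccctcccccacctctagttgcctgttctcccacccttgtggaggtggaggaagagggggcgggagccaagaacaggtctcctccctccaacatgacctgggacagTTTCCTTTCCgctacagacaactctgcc
*Tigit*, chr16:43664185-43664434, minus strand: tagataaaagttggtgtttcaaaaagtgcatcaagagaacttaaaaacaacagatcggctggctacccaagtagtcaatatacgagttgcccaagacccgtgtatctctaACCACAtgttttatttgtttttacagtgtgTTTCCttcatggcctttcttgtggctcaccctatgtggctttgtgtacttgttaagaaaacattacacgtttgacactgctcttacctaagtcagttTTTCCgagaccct
*Cd160*, chr3:96829352-96829601, minus strand: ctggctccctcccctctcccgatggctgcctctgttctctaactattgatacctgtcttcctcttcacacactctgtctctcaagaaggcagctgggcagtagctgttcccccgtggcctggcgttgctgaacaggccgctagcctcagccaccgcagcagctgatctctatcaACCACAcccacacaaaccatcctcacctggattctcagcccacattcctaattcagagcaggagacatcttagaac
*Ctla4*, chr1:60908775-60909024, plus strand: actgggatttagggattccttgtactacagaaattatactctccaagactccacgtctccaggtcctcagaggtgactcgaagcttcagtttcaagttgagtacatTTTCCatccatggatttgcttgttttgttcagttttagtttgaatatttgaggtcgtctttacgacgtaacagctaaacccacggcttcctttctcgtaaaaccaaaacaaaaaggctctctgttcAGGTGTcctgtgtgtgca
GGAAA or its complement occurred at 2 places in *Pdcd1*, side by side, at 2 in *Tigit* and at 1 in *Ctla4*, and these letters occur in 55.6% of 32851 promoters of this length. TGTGGT or its complement occurred in *Tigit* and *Cd160*, and occurs in 14.0% of promoters. *Ctla4* held AGGTGT, found in 11.8% of promoters. The sixth motif, AAAGGTCA for NR4A factors, is in 1.34% of promoters and was in none of the 6 member promoters searched. The promoter of *Lag3* was not analysed here. *Havcr2* held TGANTCA (6.75% of promoters) and TGTGGT, and *Btla* held TGTGGT. A second *Cd160* start at chr3:96814522-96814771 held 4 matches, among them 2 of CTTTGA, which occurs in 13.8% of promoters. These matches describe letters only, and no binding was measured. For *Tigit* and *Havcr2*, the bases just after the annotated start did not match a GENCODE transcript of the gene. They did for the other promoters searched.

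There were 10 clusters with 6894 cells in 12W spleen. The older spleen gave 11 clusters (6481 cells) and the kidney 12 (7135 cells). Their totals ran from 29937384 to 34742303 UMIs, and any pair of libraries shared 52 to 66 cell barcodes. The authors clustered each library separately, so a cluster number has no match in another library. Genes of other cell types marked 7 of the 33 clusters, where marked means that at least 3 genes of a list stood at least 4-fold above the rest of the library. These were cluster 3 of 12W spleen (B cell, myeloid and erythroid genes), clusters 8 (erythroid) and 10 (B cell and myeloid) of 28W spleen, and clusters 7 (kidney tubule), 8 (B cell), 11 (erythroid and proliferation) and 12 (myeloid) of 28W kidney. A low RNA content or a high mitochondrial share marked 5 clusters, among them cluster 8 of 12W spleen, cluster 11 of 28W spleen and cluster 2 of 28W kidney. The remaining 23 clusters carried neither mark, and CD8 T cell genes (*Cd8a*, *Cd8b1*, *Cd3d*, *Cd3e*, *Cd3g* and *Trac*) were detected in all clusters of 28W kidney, at 1370 to 8594 summed CPM.

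Between ages in the spleen, *Lag3* and *Ctla4* were higher, *Cd160* was lower and *Pdcd1* itself was nearly level. Values are UMIs per 1000000 UMIs of the library (CPM), and 28W spleen was set over 12W spleen. *Lag3* stood at 33.5 CPM in 12W spleen and 112 CPM in 28W spleen, a 3.33-fold higher level (3.11 to 3.56). *Ctla4* stood at 32.6 and 95.6 CPM, 2.94-fold higher (2.74 to 3.15). In contrast, *Cd160* stood at 66.5 CPM at 12 weeks and 30.9 CPM at 28 weeks, 2.15-fold lower (2.0 to 2.3). It was the highest of the 7 genes in the younger spleen and only the fourth in the older one. *Tigit* was at 16.8 and 26.3 CPM, a log2 ratio of 0.61, which lies beyond counting error but short of 2-fold. *Pdcd1* was at 36.6 and 34.7 CPM, *Btla* at 14.0 and 12.5 CPM, and *Havcr2* at 0.576 and 0.937 CPM from only 20 and 30 UMIs. These 3 genes did not differ beyond counting error. Thus 3 of 7 members passed 2-fold on the log2(CPM + 1) scale, against 2% of all 17222 genes listed in either library, with 1.32% higher and 0.674% lower. The median log2 ratio was 0.30 over the members and -0.041 over all genes. The call of *Cd160* sat at the edge, with log2 ratios of -1.08 here and -0.99 when libraries were scaled by the median gene.

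Between organs at 28 weeks, *Pdcd1*, *Tigit* and *Havcr2* were higher in the kidney, whereas *Ctla4* and *Lag3* were lower. The 28W kidney library was set over the same 28W spleen library that served above, so these 2 comparisons share it. *Pdcd1* stood at 34.7 CPM in spleen and 115 CPM in kidney, 3.32-fold higher (3.10 to 3.55). *Tigit* stood at 26.3 and 77.9 CPM, 2.96-fold higher (2.74 to 3.21). *Havcr2* stood at 0.937 and 6.18 CPM, 6.60-fold higher (4.47 to 10.1), on 30 and 185 UMIs. TIM-3 transcripts were thus the scarcest of the group in every library. *Ctla4* went the other way, from 95.6 CPM in spleen to 43.9 CPM in kidney, 2.18-fold lower (2.04 to 2.33). *Lag3* was at 112 and 65.2 CPM, 1.71-fold lower (1.62 to 1.81). *Cd160* was at 30.9 and 42.6 CPM and *Btla* at 12.5 and 10.6 CPM, with log2 ratios of 0.45 and -0.22. Here 4 of 7 members passed 2-fold, against 7.12% of 18522 genes, with 6.25% higher and 0.875% lower. The median log2 ratio was 0.45 over the members and 0.071 over all genes. With a pseudocount of 5 CPM in place of 1 CPM, *Havcr2* was within 2-fold, at a log2 ratio of 0.91.

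Clusters marked by genes of other cell types moved several of these values. With the clusters marked by other cell types left out of both libraries, the log2 ratio of kidney to spleen went from 1.70 to 1.90 for *Pdcd1*. It went from 1.53 to 1.65 for *Tigit*, from -0.77 to -0.58 for *Lag3*, from 0.45 to 0.63 for *Cd160* and from -1.11 to -1.73 for *Ctla4*. That of *Havcr2* was 1.89 and 1.90, with spleen levels below the pseudocount of 1 CPM, which log2 ratios carry and folds do not. The same 4 members passed 2-fold. The clusters left out included cluster 11 of kidney, marked by erythroid and proliferation genes, which held CD8 T cell genes at 5387 summed CPM. The proliferation clusters of the spleens, cluster 10 of 12W spleen and cluster 6 of 28W spleen, carried no mark of another cell type. They stayed in, also in the counts of clusters with neither mark. Cluster 8 of 28W kidney, in which 7 of 8 B cell genes stood at least 4-fold above the rest and none was at 0, held 598 of the 1313 *Ctla4* UMIs of the library. Summed B cell genes ran from 111 to 3445 CPM over kidney clusters and from 155 to 5444 CPM over 28W spleen clusters, with cluster 8 and cluster 10 at the top. Without cluster 8, kidney *Ctla4* was at 26.3 CPM and its log2 ratio to spleen was -1.82, and that of *Pdcd1* was 1.81. Cluster 12 of 28W kidney, with all 8 myeloid genes raised and none at 0, held 40 of the 185 *Havcr2* UMIs. Summed myeloid genes ran from 12.0 to 12928 CPM over kidney clusters and from 7.36 to 2027 CPM over 28W spleen clusters. Without cluster 12, *Havcr2* in kidney was at 5.02 CPM and its log2 ratio was 1.64. The B cell and myeloid cluster 10 of 28W spleen likewise held 14 of the 30 *Havcr2* UMIs there. Without the marked clusters on both sides, *Havcr2* was at 0.517 CPM in spleen and 4.68 CPM in kidney.

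**Figure D1:**
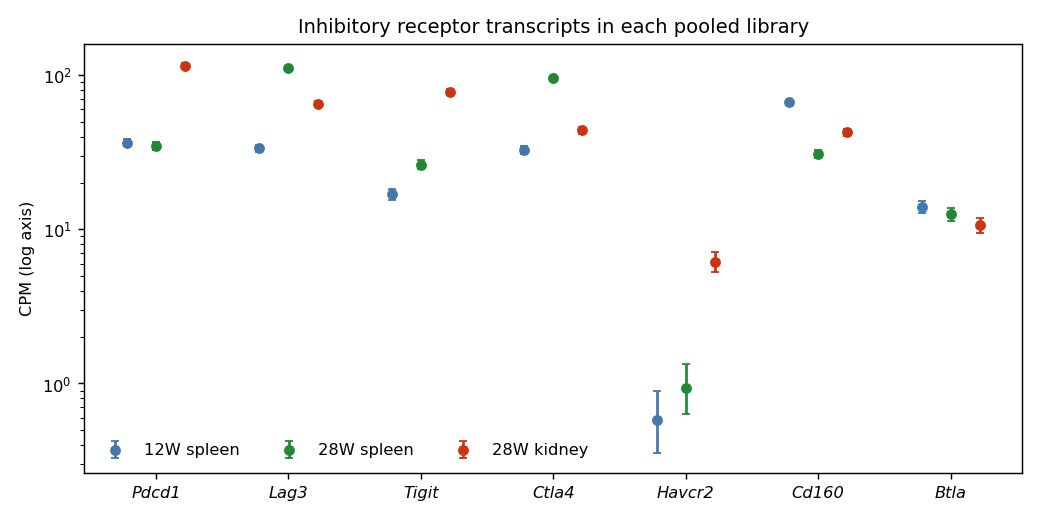
Level of each inhibitory receptor gene in the 3 pooled libraries, in CPM on a log axis, with 95% intervals of counting error. *Lag3* and *Ctla4* are highest in 28W spleen, *Pdcd1*, *Tigit* and *Havcr2* in 28W kidney, and *Cd160* in 12W spleen.

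The order of the 7 genes therefore changed from library to library. In 12W spleen *Cd160* led, followed by *Pdcd1*, *Lag3* and *Ctla4* between 32.6 and 36.6 CPM. The intervals of these neighbours overlapped, from 34.6 to 38.6 CPM for *Pdcd1* and from 31.6 to 35.5 CPM for *Lag3*. In 28W spleen *Lag3* led at 112 CPM and *Ctla4* followed at 95.6 CPM, both well above *Pdcd1*. In 28W kidney *Pdcd1* led at 115 CPM, followed by *Tigit* at 77.9 CPM and *Lag3* at 65.2 CPM. *Havcr2* was last in all 3 libraries. Since 1 UMI is 1 captured transcript end, these levels were not divided by gene length.

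The libraries are mixtures of clusters, and each member was next followed cluster by cluster. The tables hold sums over the cells of a cluster, so more cells with a transcript and more transcripts per cell cannot be told apart, nor can 2 receptors in the same cell.

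*Pdcd1*, the receptor of the sort gate, ran from 5.36 to 69.7 CPM over the clusters of 12W spleen, with a median of 39.2 CPM. In the older spleen it ran from 10.1 to 75.5 CPM with a median of 35.1 CPM. In kidney it ran from 24.6 to 229 CPM with a median of 105 CPM. The spleen ranges overlapped almost fully, while the kidney range was shifted upward. Among the clusters with neither mark, 6 of 7 in kidney lay above all 8 of 28W spleen. Cluster 6 of kidney was highest at 229 CPM (208 to 251) and lay 1.43-fold (1.27 to 1.62) above cluster 3, the next. The lowest kidney value was in cluster 8, the one with B cell genes, at 24.6 CPM. In 12W spleen, clusters 4 and 6 held only 44 and 10 *Pdcd1* UMIs, at 7.26 and 5.36 CPM, although all cells had been sorted as PD-1+. In the 2 spleen libraries the top cluster, cluster 9 in both, did not differ from the next beyond counting error. Per cell, other clusters led. These were cluster 7 of 12W spleen at 0.728 *Pdcd1* UMIs, cluster 6 of 28W spleen at 0.428 and cluster 11 of kidney at 1.08. Cluster 6 of kidney held 0.732 *Pdcd1* UMIs per cell.

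*Tigit*, the competitor of CD226, ran from 1.61 to 30.7 CPM in the younger spleen, from 5.15 to 105 CPM in the older one and from 29.6 to 130 CPM in kidney. Its medians were 16.0, 19.3 and 59.9 CPM in the same order. In 28W spleen, cluster 2 held 334 of 841 *Tigit* UMIs at 70.4 CPM and cluster 6 held 208 at 32.3 CPM, while the other clusters held 71 or fewer each. Per cell, cluster 6 led with 0.394 UMIs against 0.325 in cluster 2. Cluster 9 stood at 64.1 CPM from 28 UMIs. Cluster 11 stood higher, at 105 CPM, but from 29 UMIs, and did not differ from cluster 2 beyond counting error. In kidney, clusters 3, 6 and 1 led at 130, 125 and 104 CPM. The first pair did not differ beyond counting error, and the same 3 clusters were the highest for *Pdcd1*.

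*Cd160*, a receptor for the herpesvirus entry mediator, ran from 18.8 to 146 CPM at 12 weeks. At 28 weeks it ran from 5.78 to 60.1 CPM in spleen and from 15.4 to 69.8 CPM in kidney. Clusters 7 and 9 of 12W spleen were the only clusters above 100 CPM, at 146 CPM (135 to 157) and 120 CPM (106 to 136). Cluster 7 alone held 31.4% of the *Cd160* UMIs of that library in 5.40% of its cells. In 28W spleen, clusters 2 and 6 led at 60.1 and 54.5 CPM and did not differ beyond counting error. Among clusters with neither mark, 3 of 8 in 28W spleen lay below all 8 of 12W spleen. In kidney, clusters 3 and 1 led at 69.8 and 65.6 CPM, and the myeloid cluster 12 was lowest at 15.4 CPM.

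*Lag3*, the receptor for MHC class II, ran from 12.3 to 84.9 CPM in 12W spleen, with a median of 29.0 CPM. In the older spleen it ran from 47.7 to 213 CPM, with a median of 124 CPM, and in kidney from 33.7 to 109 CPM, with a median of 69.2 CPM. The higher level at 28 weeks was spread over clusters: 6 of 8 clusters of 28W spleen with neither mark lay above all 8 of 12W spleen. In 12W spleen, cluster 2 led with 329 of 1165 *Lag3* UMIs and did not differ beyond counting error from the low-RNA cluster 8, which held 17. In kidney the lowest and highest unmarked clusters of *Lag3* differed 2.04-fold, against 3.29-fold for *Pdcd1*.

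*Ctla4*, the competitor of CD28, followed its own order. It ran from 9.42 to 172 CPM in the younger spleen (median 30.4 CPM), from 34.7 to 343 CPM in the older (78.2 CPM) and from 10.8 to 213 CPM in kidney (23.0 CPM). The top cluster exceeded the next beyond counting error in all 3 libraries, and each was a cluster that carried a mark. Cluster 8 of 12W spleen was 3.21-fold (2.30 to 4.39) above cluster 2, and cluster 11 of 28W spleen was 1.83-fold (1.46 to 2.27) above cluster 5. Both are clusters of little RNA, at 928 and 1288 UMIs per cell, with mitochondrial shares of 8.98% and 6.64%. Cluster 8 of kidney was 3.06-fold (2.57 to 3.66) above cluster 9. Among clusters with neither mark, 6 of 8 in 28W spleen lay above all 8 of 12W spleen, and 6 of 7 in kidney lay below all 8 of 28W spleen.

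Counted per cell, *Ctla4* in the low-RNA clusters no longer stood out. Cluster 8 of 12W spleen held 0.160 *Ctla4* UMIs per cell against 0.164 over the library, and cluster 11 of 28W spleen held 0.442 against 0.472. On this scale cluster 10 of 12W spleen, marked by proliferation genes, led at 0.619 and cluster 5 of 28W spleen led at 1.08 UMIs per cell. Cluster 8 of kidney led on both scales, with 1.10 UMIs per cell. The low-RNA clusters were also where many other listed genes had their highest CPM, 29 of 62 genes of the receptor pathway in each spleen library and 8 of 62 in kidney. In kidney cluster 8, *Cd8a* was at 168 CPM against 738 CPM over the library, *Cd4* at 12.5 CPM, *Foxp3* at 11.8 CPM and *Cd79a* at 1074 CPM.

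*Havcr2* was scarce in most clusters, with 20 UMIs or more in only 4 of 33. It was listed at 0 in 5 and 7 clusters of the younger and older spleen and in 1 of kidney, where 3 UMIs would have corresponded to between 0.477 and 10.8 CPM. At 28 weeks its highest clusters were those with myeloid genes, cluster 10 of spleen at 20.2 CPM (11.1 to 34.0) and cluster 12 of kidney at 38.5 CPM (27.5 to 52.5). At 12 weeks most of the 20 UMIs lay in cluster 3, which carried myeloid genes, with 8 UMIs at 3.55 CPM, and in cluster 2, which did not, with 9 UMIs at 2.32 CPM. Outside those, *Havcr2* was found in kidney clusters 11, 3 and 1, at 10.0, 8.86 and 7.63 CPM from 41, 33 and 39 UMIs. The 8 clusters of 28W spleen with neither mark held between 0 and 9 *Havcr2* UMIs each, too few to rank them against those of kidney.

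*Btla*, the other receptor for the herpesvirus entry mediator, was low in most clusters. In the younger spleen it ran from 6.31 to 56.2 CPM with a median of 13.6 CPM, in the older from 5.21 to 47.7 CPM with a median of 10.7 CPM, and in kidney from 4.05 to 52.0 CPM with a median of 8.82 CPM. Among clusters with neither mark, its ranges were 6.31 to 20.5, 7.38 to 16.3 and 6.21 to 12.1 CPM, which overlap. The top clusters were the low-RNA cluster 8 of 12W spleen (16 UMIs), the B cell and myeloid cluster 10 of 28W spleen and the myeloid cluster 12 of kidney.

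**Figure D2:**
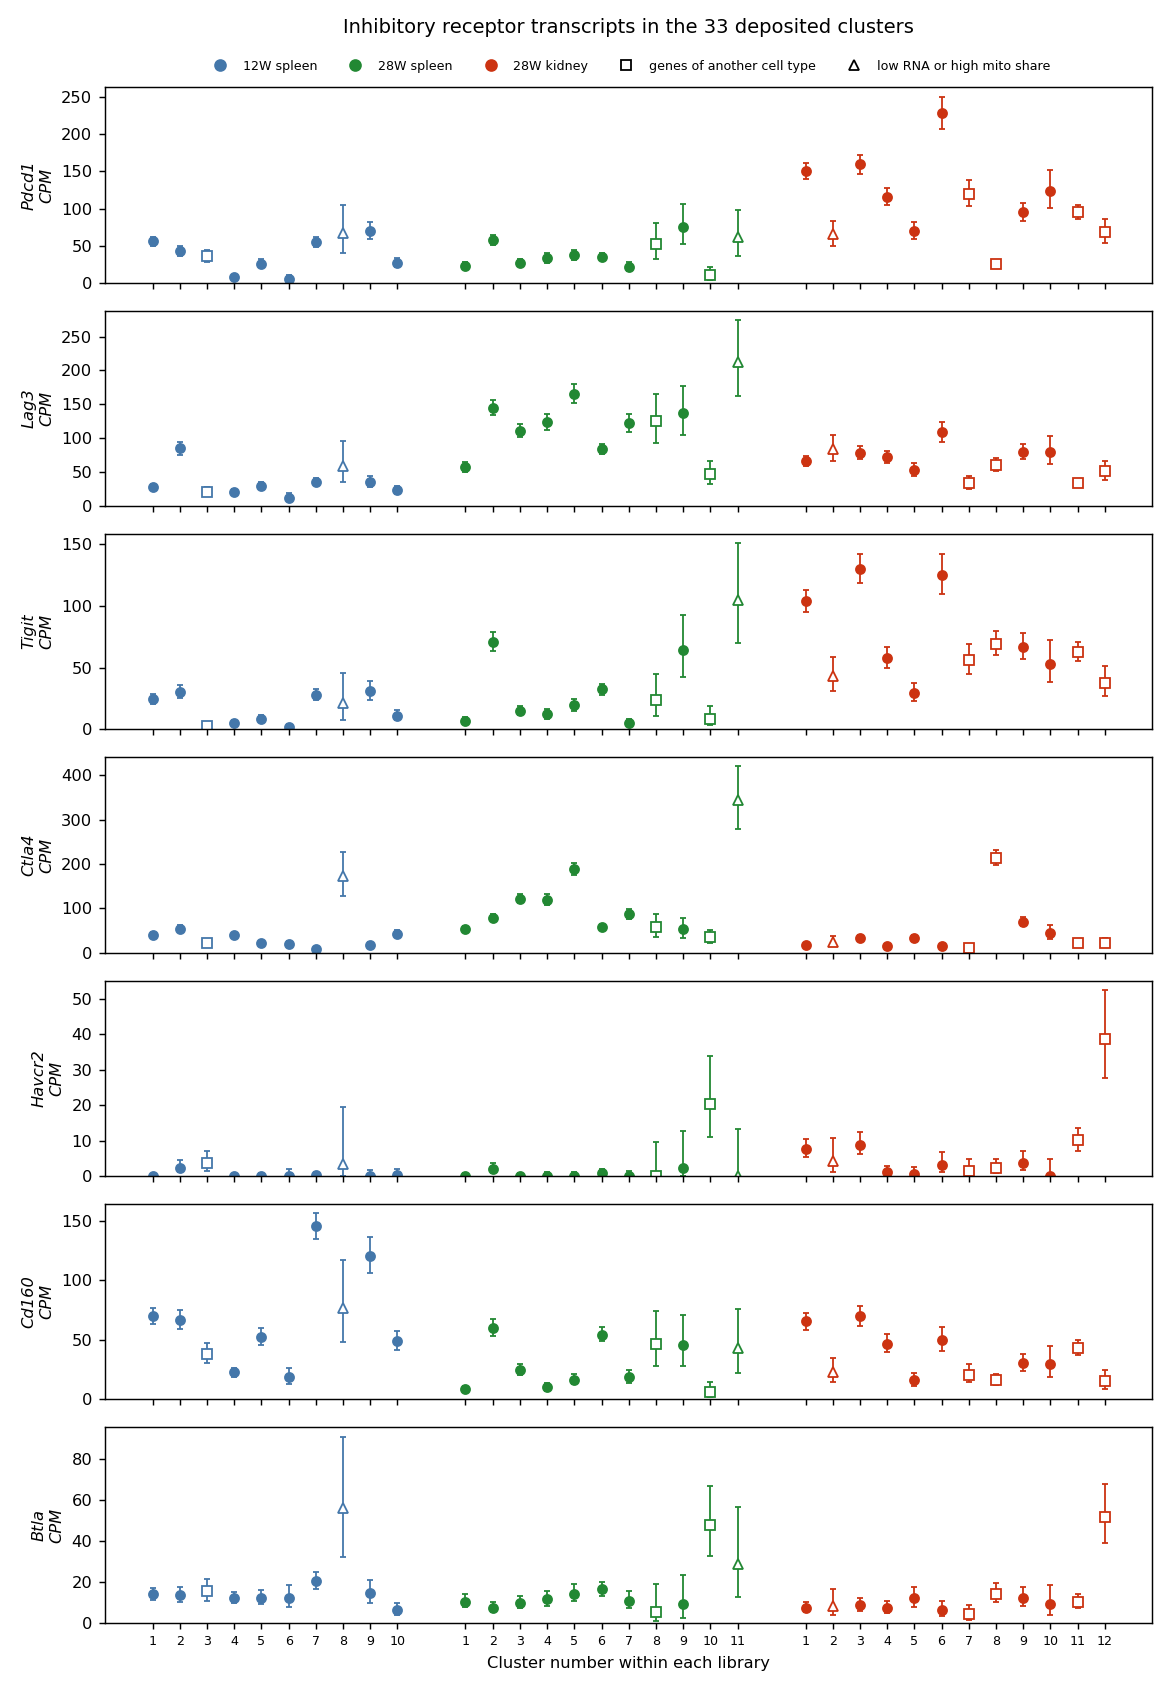
CPM of the 7 genes in each of the 33 deposited clusters, by library, with 95% intervals of counting error. Open squares are clusters with genes of another cell type, also where RNA was low, and open triangles are other clusters of low RNA or high mitochondrial share. *Pdcd1* peaks in kidney cluster 6, *Ctla4* in cluster 11 of 28W spleen, and at 28 weeks *Havcr2* and *Btla* in the clusters with myeloid genes.

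The 7 receptors did not rise as one block over clusters. *Pdcd1*, *Tigit* and *Cd160* formed a group that moved together, with *Lag3* following at a distance. *Ctla4* in CPM showed little relation to *Pdcd1* and *Cd160* over all clusters. This was measured by Pearson's r of log2(CPM + 5) over clusters, after centring each gene within its library. The clusters of a library share its cells, its depth and the clustering itself, into which these genes entered, so r is given as a description. *Tigit* and *Cd160* had r = 0.82 over 33 clusters, *Pdcd1* and *Cd160* 0.81, and *Pdcd1* and *Tigit* 0.73. Each of these pairs was positive in all 3 libraries, between 0.56 and 0.90. *Lag3* had r between 0.54 and 0.63 with these 3 genes, with the lowest values in kidney (0.30 with *Pdcd1*). Without centring, *Lag3* and *Cd160* had r = -0.056. At the level of libraries, the first was higher and the second lower in the older spleen.

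*Ctla4* had r = -0.10 with *Pdcd1*, -0.09 with *Cd160* and 0.18 with *Tigit*, and 0.47 with *Lag3*. These signs depended on the scale: on UMIs per cell all 21 pairs of members were above 0, against 11 in CPM, and *Ctla4* had 0.29 with *Pdcd1* and 0.37 with *Cd160*. UMIs per cell also carry the total RNA of a cluster, from 928 to 14345 UMIs per cell in 12W spleen. No value over all gene pairs is given on that scale. In CPM, the relation of *Ctla4* to *Pdcd1* differed between libraries, at 0.17 and 0.36 for the younger and older spleen and -0.70 for kidney. The kidney value was -0.28 without cluster 8, the cluster of high *Ctla4* and low *Pdcd1* that carried B cell genes. Over the clusters of all libraries without that cluster, *Ctla4* had r = 0.15 with *Pdcd1* and 0.0074 with *Cd160*. Over the 23 clusters with neither mark, *Ctla4* had r = -0.24 with *Pdcd1* and -0.40 with *Cd160*, while *Pdcd1* and *Tigit* had 0.88 and *Tigit* and *Cd160* 0.88. *Havcr2* and *Btla* had r = 0.65 over all clusters and -0.19 over those 23. Over the same 23, *Havcr2* had 0.61 with *Tigit* and 0.51 with *Cd160*, at levels where most clusters held fewer than 20 UMIs.

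The median r of their 21 pairs was 0.0099 over the 33 clusters, with 7 pairs (33.3%) at 0.5 or more. Over all pairs of 4723 genes the median was 0.095, and 20.1% reached 0.5. Those genes stood at 20 CPM or more in each library. *Tigit*, *Btla* and *Havcr2* did not, so the members and this background are unlike in level. The median of the members moved with the setting, to 0.39 without the clusters of other cell types and 0.48 on UMIs per cell. No value over all gene pairs is given beside these. Taken library by library it was 0.48 for the younger spleen, 0.15 for the older and 0.040 for kidney. Counting noise made up 2.07% to 8.60% of the variance of log2 *Pdcd1* levels over clusters of a library, and up to 39.0% of that of *Havcr2*.

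**Figure D3:**
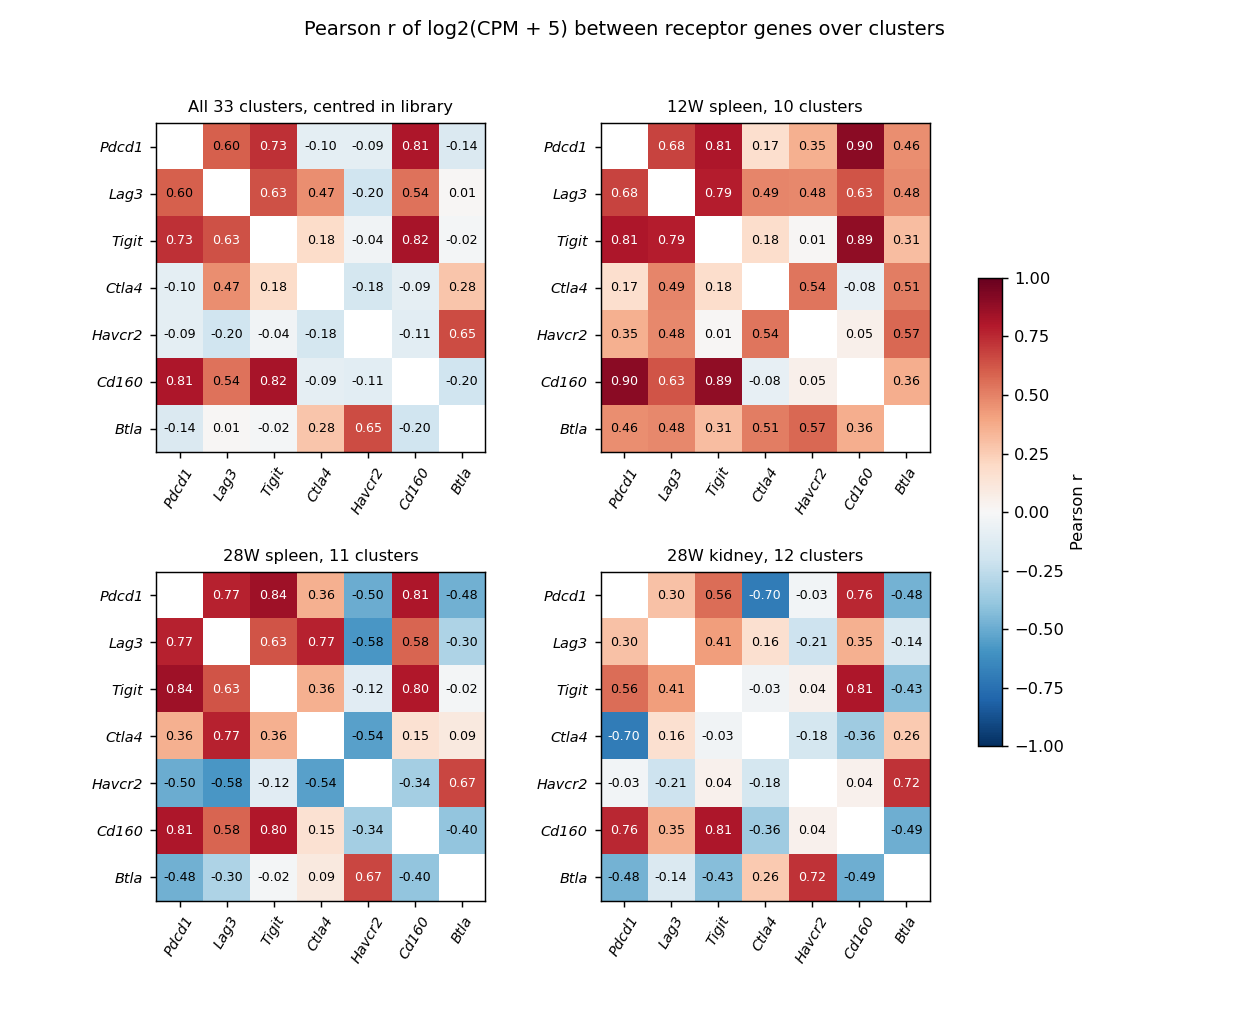
Pearson's r between each pair of receptor genes over clusters, for all 33 clusters centred within library and for each library alone. *Pdcd1*, *Tigit* and *Cd160* stay at 0.56 or above in every panel, while *Ctla4* against *Pdcd1* goes from 0.36 in 28W spleen to -0.70 in 28W kidney.

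**Figure D4:**
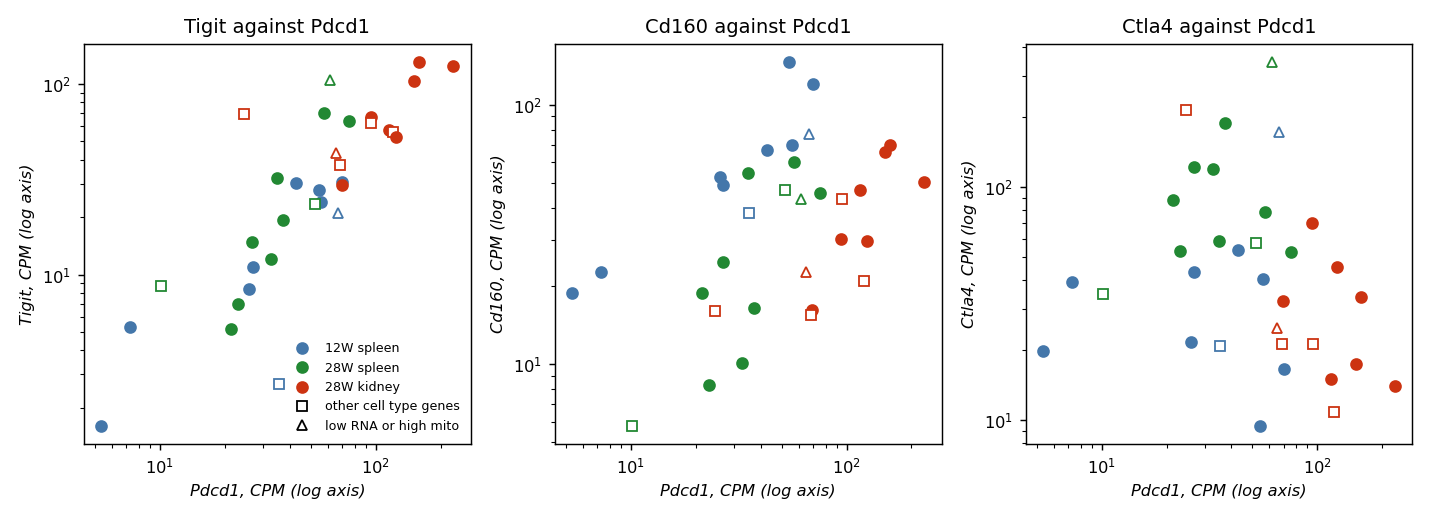
CPM of *Tigit*, *Cd160* and *Ctla4* against *Pdcd1* in each cluster, both axes log, coloured by library, with open symbols for marked clusters. *Tigit* mostly rises with *Pdcd1*, *Cd160* lies along separate bands for the libraries, and *Ctla4* shows no common direction. Off the *Tigit* trend lie kidney cluster 8 (*Pdcd1* 24.6 and *Tigit* 69.2 CPM) and cluster 3 of 12W spleen (35.5 and 2.66 CPM).

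The balance of receptors within a cluster was read as UMIs of 1 gene per UMI of another in the same cluster, which needs no scaling. Over whole libraries there were 0.891 *Ctla4* UMIs per *Pdcd1* UMI in the younger spleen, 2.75 in the older and 0.381 in kidney. Between clusters of kidney this ratio ran from 0.0611 (0.0398 to 0.0901) in cluster 6 to 8.67 (6.75 to 11.3) in cluster 8. It ran from 0.173 to 5.39 at 12 weeks and from 0.697 to 5.59 at 28 weeks in spleen clusters. *Ctla4* and *Pdcd1* were therefore balanced very differently in clusters of the same library. *Lag3* per *Pdcd1* was 0.917, 3.21 and 0.566 over the 3 libraries, and in every cluster of 28W spleen it was at least 1.82. *Tigit* per *Pdcd1* was steadier between whole libraries, at 0.461, 0.756 and 0.676, and its median over clusters was 0.420, 0.550 and 0.602. Between clusters it was not steady, from 0.075 to 0.727, from 0.241 to 1.71 and from 0.427 to 2.81 in the same order. *Cd160* per *Pdcd1* was 1.82, 0.891 and 0.370, so that the older spleen and the kidney carried less *Cd160* for the same *Pdcd1*. *Tigit* per *Cd160* was 0.253, 0.849 and 1.83. Kidney cluster 8 was the highest of its library for each of the 4 ratios to *Pdcd1*.

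**Figure D5:**
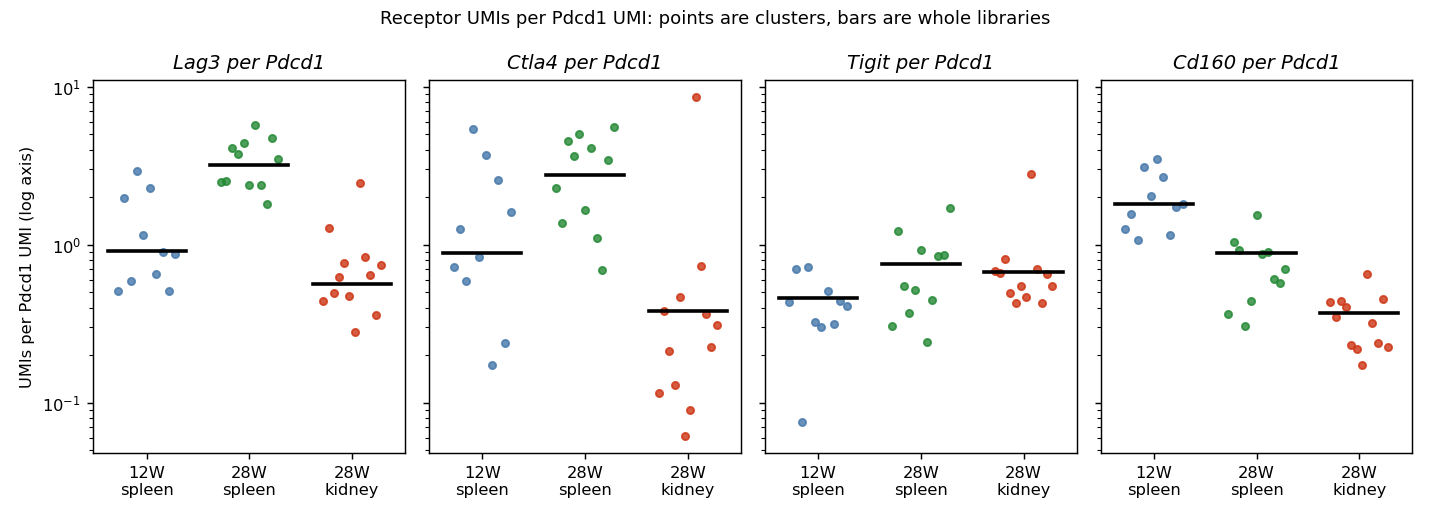
UMIs of *Lag3*, *Ctla4*, *Tigit* and *Cd160* per *Pdcd1* UMI on a log axis, with a point for each cluster and a bar for the whole library. The bars of *Lag3* and *Ctla4* are highest in 28W spleen, at 3.21 and 2.75, and that of *Cd160* is highest in 12W spleen, at 1.82.

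The receptors also differed in which T cell genes they accompanied. Summed cytotoxic genes (*Gzmk*, *Gzmb*, *Nkg7*, *Ccl5*, *Prf1* and *Ifng*) had r = 0.51 with *Pdcd1*, 0.43 with *Tigit*, 0.35 with *Lag3* and 0.28 with *Cd160*. The values were -0.031 with *Ctla4*, -0.060 with *Havcr2* and -0.34 with *Btla*. For *Pdcd1* the r was 0.81 in kidney, against 0.70 in the older spleen and 0.17 in the younger. For *Ctla4* it was -0.35 in kidney, 0.011 in the older spleen and 0.23 in the younger. Over the clusters with neither mark these *Ctla4* values were -0.60, -0.28 and 0.61. The kidney cluster with the most *Pdcd1* in CPM, cluster 6, also had the most summed cytotoxic CPM, 20047 against a median of 8615 CPM. *Ctla4* had r = 0.88 with the mitochondrial share over the clusters of the younger spleen, 0.67 over those of the older and -0.12 over those of kidney, and the part of that share in the *Ctla4* levels was not tested. *Havcr2* had r = 0.76 with summed myeloid genes and *Btla* 0.52.

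For each member, 3 genes other than the members were named whose levels over clusters were most alike. Likeness was the lowest of the 3 within-library values of Pearson's r, among 4719 genes. Members were left out of this ranking, although *Cd160* had a lowest r of 0.76 with *Pdcd1* and 0.80 with *Tigit*. *Ctla4* had the closest companions, *Pde4b*, *Smad7* and *Fbxo33*, with lowest r of 0.84, 0.82 and 0.80. *Pde4b* encodes a cyclic AMP phosphodiesterase and *Smad7* an inhibitor of TGF-β signalling. *Pdcd1* was nearest to *G3bp2* (0.74), *Rdx* (0.71) and *Ube2g1* (0.67), which encode a stress granule protein, a membrane-cytoskeleton linker and a ubiquitin-conjugating enzyme. *Tigit* was nearest to *Slamf7* (0.74), a lymphocyte surface receptor, and to *Eif4g2* (0.67) and *Atg4b* (0.66). *Lag3* was nearest to *Tle3* (0.69), *Ly9* (0.67) and *Fyn* (0.66), a corepressor, a SLAM family receptor and a Src family kinase. *Cd160* was nearest to *E2f4* (0.73), *Sae1* (0.73) and *Sms* (0.72). *Havcr2* was nearest to *Fcer1g* (0.76), *Ppt1* (0.75) and *Leprot* (0.73), of which the first is a signalling chain in the myeloid list used here, and *Btla* to *Syngr2*, *Gusb* and *Prkcd*, each at 0.77. No gene was among the 3 named for 2 members at once.

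Around the receptors, 12 genes for their ligands were listed. For this and the lists that follow, 1.32% of all genes were higher and 0.674% lower past 2-fold by age. By organ these shares were 6.25% and 0.875%. In the age comparison 1 of 12 passed 2-fold, *Lgals3*, which encodes galectin-3, at 12.2 CPM in 12W spleen and 37.4 CPM in 28W spleen. In the organ comparison 3 of 12 were higher in kidney and none lower. These were *Lgals3* (109 CPM in kidney), *Cd86* (19.5 and 41.5 CPM) and *Ceacam1* (0.375 and 3.21 CPM), each with its highest kidney level in the myeloid cluster 12. *Cd274*, which encodes PD-L1, was within 2-fold in both, at 12.3 CPM in the younger spleen, 16.4 CPM in the older and 25.6 CPM in kidney. *Lgals9*, for galectin-9, was at 160, 179 and 195 CPM.

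Of 9 genes for costimulatory counterparts, only *Tnfrsf9*, which encodes 4-1BB, passed 2-fold. It was lower in both comparisons, at 99.7 CPM in the younger spleen, 38.3 CPM in the older and 17.2 CPM in kidney, the order also of the values that follow. *Cd28* was nearly level, at 208, 208 and 201 CPM, beside the changes of its competitor *Ctla4*. *Cd226*, the counterpart of *Tigit*, was at 81.3, 63.1 and 117 CPM. Of 10 adaptor and phosphatase genes, none passed 2-fold in either comparison, and *Ptpn11*, for the phosphatase SHP2, was at 31.4, 43.5 and 47.3 CPM. *Ptpn6*, for SHP1, was at 215, 149 and 182 CPM.

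Of 15 further genes for inhibitory receptors or related surface proteins, 3 were higher with age and 6 higher in kidney, and none was lower past 2-fold. Among all genes, 1.32% were higher with age and 6.25% higher in kidney. *Cd244* is in this list and also among the costimulatory counterparts. *Klrc1*, for the receptor NKG2A, was higher in both, at 14.0 and 32.2 CPM in the younger and older spleen and 143 CPM in kidney. *Entpd1*, for the ectoenzyme CD39, was at 3.68, 6.56 and 35.2 CPM, and *Klrg1* at 0.950, 2.15 and 10.6 CPM. The *Entpd1* level was highest in the myeloid cluster 12 of kidney, at 68.4 CPM. *Lilrb4a*, *Lilr4b* and *Cd300a* were the other 3 genes higher in kidney, each with its highest kidney level in cluster 12. The other 2 with age were *Lair1* and the B cell gene *Cd22*.

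Of 17 transcription factor genes tied to T cell activation, exhaustion or memory, 1 was higher and 2 lower with age, and 5 were higher and 3 lower in kidney. Past 2-fold in either direction were 2% of all genes by age and 7.12% by organ. *Tox2* was higher in both, at 0.461, 2.87 and 7.08 CPM, while *Tox* stayed at 83.5, 72.4 and 75.7 CPM. *Prdm1*, for Blimp-1, was at 1.5, 2.0 and 12.5 CPM, and *Maf* at 3.68, 8.28 and 37.1 CPM. *Id2* was at 149, 135 and 477 CPM, while *Tcf7*, for the memory factor TCF-1, was at 216, 207 and 76.9 CPM and *Id3* at 234, 135 and 66.1 CPM. *Ikzf2*, for Helios, was lower in both comparisons, at 109, 50.2 and 21.1 CPM. *Nr4a1*, an early gene of T cell receptor signals, was at 67.4, 24.6 and 89.3 CPM, and 2054 of its 2674 kidney UMIs came from cluster 8, the cluster of highest *Ctla4*.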

How the data were processed

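PD-1+CD44+CD8+ T cells of 12W spleen, 28W spleen and 28W kidney were profiled by the authors with 5′ v2 single-cell chemistry. The study's methods state a Cell Ranger vdj run on GRCm38, and the submitters' processing notes list Cell Ranger 2.1.1 and R 3.6.1. The annotation release and cell filters are not given in the sources used here. For each library the authors deposited a cluster number per barcode and a table of mean counts per gene and cluster, a signal normalized within the library. The same tables hold deposited log2 fold changes and adjusted p-values of each cluster against the others, which hold the authors' own comparisons and were not used.

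Each deposited column of mean counts held whole multiples of 1 step, so whole UMIs were recovered for 100% of values within 0.001, then scaled to CPM. The younger spleen gave 34742303 UMIs, the older 32023473 and the kidney 29937384, or a median of 3853, 4128 and 3501 UMIs per cell. Across libraries, which the authors normalized separately, levels rest on this scaling. Log2 ratios used a pseudocount of 1 CPM and correlations one of 5 CPM, while folds and their intervals carry none. Intervals are exact Poisson for levels and exact binomial for ratios, at 95%. They, and the limit of 3 UMIs for a gene at 0, cover counting error only. A cluster was marked by a list where at least 3 genes were at least 4-fold above the rest (pseudocount 10 CPM) and the sum was at least 100 CPM. It was of low RNA where UMIs per cell were below the library mean divided by 3, or of high mitochondrial share where that share was over 2 times the library's. The genes named were the members, listed genes on which a count turned and 3 genes per member. These 3 had the largest lowest r among genes of at least 20 CPM in each library. T cell receptor and immunoglobulin segments and the members themselves were left out of that ranking. The closing text names further genes of the same lists. Members and lists were chosen with earlier results of these data known. Of 18992 identifiers, 18960 were found in GENCODE M21. Doublets could not be called from cluster tables. T cell receptor clonotypes were not used here. Alternatives changed the scaling, library total, weight of cells, pseudocount, filter and clusters used. Python 3.11.15, numpy 2.4.6, pandas 2.3.3 and scipy 1.17.1 were used, and the scripts were tested on simulated data.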

Additional observations from a re-analysis of the deposited data

How the results depend on the processing

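With 1 pooled library per group, no difference could be set against the spread between mice, and *Havcr2* was limited by depth. No paired analysis was possible because the tables pool the 4 labelled samples of each group, which may be sequencing lanes. For the same reason no sample could be left out. The counts of members past 2-fold stayed at 2 or 3 of 7 by age and 3 or 4 of 7 by organ under every alternative. The median log2 ratio of members by organ, 0.45, was 0.32 with a total without receptor, mitochondrial and ribosomal genes, 0.63 without clusters of other cell types and 0.74 without proliferation clusters. That median is the ratio of *Cd160*. The median r over clusters, 0.0099, was 0.48 on UMIs per cell, 0.39 without clusters of other cell types, 0.28 for members with at least 20 UMIs in at least 17 clusters and 0.48 in 12W spleen alone. Settings chosen after seeing the data gave 0.26 over the 23 clusters with neither mark and 0.24 without 28W kidney. On UMIs per cell 21 of 21 pairs were above 0, against 11, so that pairs of r near 0, among them *Ctla4* with *Pdcd1* and *Cd160*, changed sign. The total RNA of a cluster enters that scale, and no value over all gene pairs is given on it. Of the 7 pairs with r of at least 0.5, the sign turned for *Lag3* and *Cd160* without centring (r = -0.056) and for *Havcr2* and *Btla* over the 23 clusters (r = -0.19), also chosen after seeing the data. The cause was not tested. The *Pdcd1*, *Tigit* and *Cd160* pairs kept a positive r under all settings, the lowest being 0.36 for *Tigit* and *Cd160* without centring.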
